A study of Mus musculus with 12 samples.

Results

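The difference between Pim1-/- and wild-type (WT) peritoneal macrophages was averaged over cells given PBS and cells given oxidized low-density lipoprotein (oxLDL), for 12594 of the 24279 genes of the expression table. A gene entered with at least 1 TPM, a level in transcripts per 1000000 that corrects for transcript length, in at least 3 libraries. Its averaged difference is the mean of the knockout-minus-WT difference in PBS and that in oxLDL, on the log2(TPM + 1) scale. A gene is described as shifted the same way when the averaged difference passed the test (limma adjusted p under 0.05) and, in each treatment separately, all 3 Pim1-/- libraries lay on 1 side of all 3 WT libraries. This was scored on TPM as deposited and again after median-of-ratios scaling, which divides each library by its median ratio to the geometric mean of all libraries. Under both scalings 283 genes were lower without Pim1 in both treatments (2.25% of all tested genes) and 147 were higher (1.17%). These values chose the genes, so their levels are given below as a description.

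All cells were mouse peritoneal macrophages, the phagocytes of the abdominal cavity, held in serum-containing medium, from WT mice or from mice without Pim1. Each genotype received PBS or 20 µg/mL oxLDL for 8 h, and each of the 4 groups holds 3 libraries. The labels name no strain, sex, age or number of mice and not the part of Pim1 that was deleted, nor whether libraries of a group share an animal. The p-values therefore measure the spread between these samples, which may be technical. Pim1 is a serine/threonine kinase without a regulatory domain, so its activity follows its amount. Its gene is switched on by JAK-STAT and NF-kB signalling, the protein is short-lived, and its substrates include regulators of survival, of the cell cycle and of protein synthesis. In macrophages the gene is induced by inflammatory stimuli.

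The WT libraries differed from the Pim1-/- libraries in how TPM varied with transcript length, and both treatments showed this. The slope of a library's deviation from the mean of all libraries, in log2(TPM + 1) per doubling of transcript length, reached 0.25, 0.32 and 0.26 for WT PBS but -0.16, 0.08 and -0.13 for Pim1-/- PBS. In oxLDL the slopes were 0.03, -0.13 and 0.19 for WT and -0.13, -0.32 and -0.25 for Pim1-/- libraries. The factors by which scaling divided the libraries were 1.56 to 1.81 in WT PBS, 0.912 to 1.47 in Pim1-/- PBS, 0.667 to 1.05 in WT oxLDL and 0.661 to 0.774 in Pim1-/- oxLDL. The third WT PBS library had 12867 rows at 0, against 8204 to 9964 in the others. The second WT oxLDL library was closest to the first Pim1-/- oxLDL library (Spearman 0.977 over genes), and the second Pim1-/- PBS library to the first WT PBS library (0.916). The macrophage markers, with Adgre1 and Mertk among them, were detected in every library, with a summed level of 12485 to 24733 TPM in WT and 13659 to 24350 TPM in Pim1-/- cells, most of it Lyz2. Of these 9 markers 4 were lower (44.4%, against 8.21% of all tested genes) and 0 higher without scaling (median difference -1.08). With scaling 1 was lower (11.1%, against 3.6%) and 2 were higher (22.2%, against 6.62%), with a median of -0.65. The marker sums are of TPM as deposited. Markers of B cells summed to 84.4 to 106 TPM in WT PBS and, without overlap, 33.7 to 73.1 in Pim1-/- PBS, and to 12.8 to 29.4 and 27.9 to 31.1 in oxLDL. Divided by the scaling factors above, the B cell sums in PBS overlapped between genotypes. Mesothelial and fibroblast markers summed to 439.8 to 937 TPM in WT PBS against 944 to 2166 in Pim1-/- PBS, without overlap, and to 442 to 1294 against 689 to 1336 in oxLDL. T and NK cell markers summed to 738 to 1531 TPM in WT PBS and 917 to 2147 in Pim1-/- PBS, and to 2432 to 16410 and 16650 to 18190 in oxLDL, of which Ccl5, a chemokine that macrophages also make, was 2215 to 16090 and 16336 to 17906 TPM, so that the groups did not overlap in oxLDL. Cd3d and Nkg7 of T and NK cells stood at 61.5 and 333 TPM in the third WT PBS library and at 4.67 and 8.99 or less in the others. Dendritic cell markers summed to 83.5 to 132 and 129 to 329.6 TPM in PBS and to 303 to 1680 and 1637 to 1816 in oxLDL, most of it Bst2 in oxLDL. Mast cell and eosinophil markers summed to 51.6 to 78.5 TPM in WT PBS and, without overlap, 13.7 to 42.9 in Pim1-/- PBS. In oxLDL these sums were 24.4 to 64.4 and 35.4 to 45.35 TPM. Lyz2, Ccl5, Cd3d, Nkg7 and Bst2 were named after their values were seen, and the part of such cells in the differences below was not tested. In bulk samples fewer cells of a type and less RNA per cell cannot be told apart.

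Pim1 itself, on chromosome 17 (29490753 to 29496112, GRCm38/mm10, GENCODE M21), fell in the knockout in both treatments and under both scalings. It stood at 93.1, 68.5 and 77.6 TPM in WT PBS, 365, 56 and 114 in WT oxLDL, 13.9, 10.2 and 30.6 in Pim1-/- PBS and 47.8, 13.6 and 12.3 in Pim1-/- oxLDL. Every Pim1-/- library lay below every WT library of its treatment, and transcripts assigned to the gene remained in each. The averaged difference was -2.43 (SE 0.46, limma adjusted p = 0.00971), and -2.01 after scaling (limma adjusted p = 0.0391). An exact two-sided permutation of genotype within each treatment gave p = 0.005 under both scalings, the smallest that its 400 arrangements allow. The related kinase Pim2 stood at 6.48, 6.66 and 23.3 TPM in WT PBS, 3.93, 3.43 and 2.94 in WT oxLDL, 2.95, 6.26 and 1.6 in Pim1-/- PBS and 2.16, 1.06 and 1.58 in Pim1-/- oxLDL, lower in each Pim1-/- library than in each WT library of its treatment. The mean of its 2 differences was -1.1 (SE 0.36, limma adjusted p = 0.0614), and -0.78 after scaling (limma adjusted p = 0.147), with an exact permutation p of 0.005 without and 0.03 with scaling. The last family member, Pim3, differed by -0.82 and -0.42 without and with scaling (exact permutation p = 0.23 and 0.57), and its groups overlapped in both treatments.

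Averaged over treatments, 1034 of 12594 genes were lower (8.21%) and 370 higher (2.94%) in Pim1-/- cells without scaling (limma adjusted p under 0.05). With scaling 454 were lower (3.6%) and 834 higher (6.62%). These shares of all tested genes are the background for each count by list below. The median difference of all tested genes was -0.30 without and 0.05 with scaling, so scaling moved the balance of calls from 73.6% to 35.2% lower. All 454 genes called lower after scaling were also called lower before it, and 364 of the 370 called higher before scaling (2.89% of all tested genes) were called higher after it. Within PBS alone 511 genes were lower (4.06%) and 77 higher (0.611%) without scaling, against 1 (0.00794%) and 2 (0.0159%) with it. Within oxLDL alone limma called 0 lower and 1 higher (0.00794%) under each scaling, with 1367 genes at an unadjusted p under 0.05 without scaling. Same-way shifts numbered 688 lower (5.46%) and 153 higher (1.21%) without scaling, and 286 (2.27%) and 412 (3.27%) with it.

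The PBS and oxLDL comparisons share no library, so 1 can be read against the other. In PBS 2662 genes (21.1%) had all 3 Pim1-/- libraries below the 3 WT libraries, and of these 903 (33.9%) did so in oxLDL as well, against 13% of all tested genes, and 13 (0.488%) lay wholly above. Of 834 genes (6.62%) wholly higher in PBS, 257 (30.8%) were wholly higher in oxLDL, against 6.88% of all tested genes. After scaling these shares were 31.4% of 1301 genes (10.3% of all) and 29.7% of 1814 (14.4% of all), against 8.86% and 11.3% of all. Across the 12594 genes the PBS and oxLDL differences correlated with Pearson r = 0.65 and Spearman rho = 0.63 without scaling, and 0.66 and 0.63 with it. With the dependence on length and GC content taken out of each library, an adjustment chosen after the data were seen, they were 0.53 and 0.50. Genes are not independent replicates, and they share the library composition and length slopes given above.

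**Figure D1:**
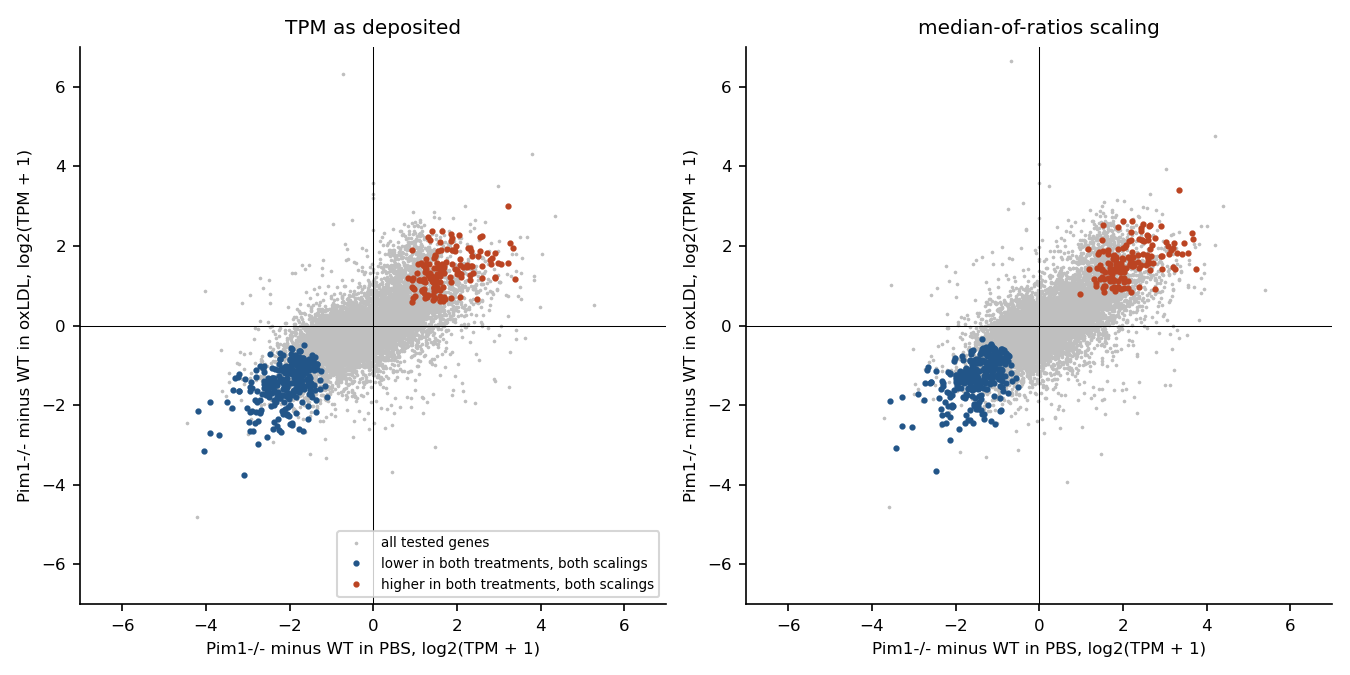
Each point is a tested gene, with its Pim1-/- minus WT difference in PBS on the x axis and in oxLDL on the y axis, both on the log2(TPM + 1) scale, without scaling (left) and with median-of-ratios scaling (right). The 283 genes lower (blue) and 147 higher (red) under both scalings lie in opposite corners of a cloud that tilts along the diagonal, and scaling moves the cloud towards higher values.

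Single libraries decided how many genes passed. With any 1 of the first or second WT PBS, the third Pim1-/- PBS or the second or the third Pim1-/- oxLDL library left out, 0 genes were shifted the same way under both scalings in either direction. Without the third WT oxLDL library 1 was lower and 0 higher, without the first WT oxLDL library 36 and 0, and without the first Pim1-/- PBS library 19 and 0. Counts were larger without the third WT PBS library, the one with the most rows at 0 (481 lower and 377 higher). They were also larger without the second WT oxLDL library, whose closest library was a Pim1-/- one (520 and 379). Without both of them 918 were lower and 862 higher, and these held all 283 and all 147 genes. Fewer libraries make the rule of no overlap easier to meet, and removing a WT library near the knockout widens the difference. The larger counts are therefore no support for the genes. Without the second Pim1-/- PBS library 276 were lower and 330 higher.

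Among the 283 genes lower the same way under both scalings, the largest averaged fall was that of Uhmk1, a serine/threonine kinase with an RNA-binding motif that phosphorylates splicing factors. It stood at 193, 206 and 139 TPM in WT PBS, 68.1, 10.1 and 24.5 in WT oxLDL, 19.2, 12.4 and 3.51 in Pim1-/- PBS and 3.79, 1.32 and 1.47 in Pim1-/- oxLDL. Every Pim1-/- library lay below every WT library of the same treatment, and the first WT oxLDL library was the highest of its group. The averaged difference was -3.61 (SE 0.46, limma adjusted p = 0.00449), and -3.26 after scaling (limma adjusted p = 0.0328). Where a pair of differences follows a gene below, the first is without and the second with scaling. The 15 largest falls of well-expressed same-way genes, with a mean of at least 5 TPM, ran from -3.61 in Uhmk1 to -2.57 in Chic2, which encodes a membrane protein of vesicles.

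Lamp1, an abundant glycoprotein of the lysosomal membrane, had the highest level of these 15. Its level was 3622, 3642 and 3101 TPM in WT PBS, 1329, 194 and 339 in WT oxLDL, 289, 228 and 98.8 in Pim1-/- PBS and 120.0, 90.5 and 91.4 in Pim1-/- oxLDL. The WT PBS libraries stood apart from all others, and the 3 Pim1-/- oxLDL libraries lay close together below the WT oxLDL libraries. The averaged difference was -3.17 (SE 0.42, limma adjusted p = 0.00463), and -2.74 after scaling (limma adjusted p = 0.0328). Of the other 40 tested lysosomal genes 2 were lower and 0 higher without scaling and 0 lower and 4 higher with it, with medians of -0.47 and -0.04. Lipa, the lysosomal acid lipase that splits cholesteryl esters, was 1 of the 2, at -1.45 (limma adjusted p = 0.0265), and did not pass with scaling (-1.02, limma adjusted p = 0.0613).

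The promoters of Lamp1 and of Slpi, a gene higher without Pim1, are shown because each holds CACGTG, the core bound by basic helix-loop-helix factors, which lysosomal genes often carry near their start. They run from 250 bases before to 50 after the gene's start (RefSeq, GRCm38.p6), with CACGTG in capitals, 4 times in Lamp1 and 1 time in Slpi.
Lamp1 promoter, chr8:13158911-13159210, plus strand: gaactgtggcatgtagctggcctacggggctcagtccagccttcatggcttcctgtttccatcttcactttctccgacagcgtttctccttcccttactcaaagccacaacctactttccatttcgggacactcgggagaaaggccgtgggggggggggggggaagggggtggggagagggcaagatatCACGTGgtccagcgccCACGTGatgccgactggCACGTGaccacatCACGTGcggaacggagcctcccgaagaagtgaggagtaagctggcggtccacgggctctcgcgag
Slpi promoter, chr2:164356458-164356757, minus strand: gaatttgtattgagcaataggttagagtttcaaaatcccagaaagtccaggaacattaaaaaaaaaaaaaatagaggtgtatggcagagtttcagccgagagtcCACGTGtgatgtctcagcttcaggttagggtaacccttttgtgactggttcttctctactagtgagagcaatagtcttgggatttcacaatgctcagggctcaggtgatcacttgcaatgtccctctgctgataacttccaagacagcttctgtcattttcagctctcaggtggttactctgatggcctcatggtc
CACGTG, read on both strands, was present in 19 of the 213 promoters found for the 283 lower genes (8.92%), in 7 of 106 found for the 147 higher genes (6.6%) and in 10.1% of the 9388 found for all tested genes. The cyclic AMP response element TGACGTCA was in 9 of 213 lower (4.23%), 10 of 106 higher (9.43%) and 3.16% of all. The AP-1 motif TGANTCA was in 3.76%, 3.77% and 5.21%, and the STAT motif TTCNNNGAA in 7.51%, 4.72% and 7.09%. An interferon-stimulated response motif was in 2.82%, 2.83% and 3.32%. The promoters were richer in G and C in the lower genes (median 67%) and less rich in the higher genes (58%) than over all genes (60.7%). A match is a description of the sequence and does not show binding.

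Gclm, also among the 15 largest falls, encodes the modifier subunit of glutamate-cysteine ligase, the first enzyme of glutathione synthesis, and stood at 84.9, 82.3 and 43.5 TPM in WT PBS, 165, 10.9 and 38.6 in WT oxLDL, 17.9, 4.46 and 3.94 in Pim1-/- PBS and 3.6, 2.28 and 1.14 in Pim1-/- oxLDL. The first WT oxLDL library was by far the highest of its group, and no Pim1-/- library reached a WT library of its treatment. On average it differed by -3.42 (SE 0.55, limma adjusted p = 0.00704), and -3.06 after scaling (limma adjusted p = 0.0328). Srxn1, the sulfiredoxin that restores oxidized peroxiredoxins, differed by -2.01 and -1.59 without and with scaling (limma adjusted p = 0.00704 and 0.0328). Of 30 tested NRF2 targets and antioxidant genes 6 were lower (20%, against 8.21% of all genes) and 3 higher (10%, against 2.94%) without scaling. With it 4 were lower (13.3%, against 3.6%) and 4 higher (13.3%, against 6.62%), and 3 were shifted lower the same way under both. The 3 higher without scaling included the metallothionein Mt1 (1.65, limma adjusted p = 0.0354) and thioredoxin, Txn1 (1.5, limma adjusted p = 0.037), both with groups that overlapped in at least 1 treatment.

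Of 36 tested kinases of the MAP kinase cascades 8 were lower without scaling (22.2%, against 8.21% of all genes) and 5 with it (13.9%, against 3.6%), 0 were higher, and 3 were lower the same way under both. The median over the list was -0.69 without and -0.32 with scaling, beside -0.30 and 0.05 over all genes. Mapk14, the p38 alpha kinase of stress and cytokine signalling, stood at 96.9, 127 and 79.9 TPM in WT PBS, 44, 13.8 and 29.7 in WT oxLDL, 21.3, 22.9 and 8.77 in Pim1-/- PBS and 9.7, 7.08 and 7.23 in Pim1-/- oxLDL, and its averaged difference was -2.07 (SE 0.33, limma adjusted p = 0.00704), and -1.67 after scaling (limma adjusted p = 0.0328). The WT PBS libraries were the highest of all, and no Pim1-/- library overlapped a WT library of its treatment.

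Of 44 ubiquitin-specific proteases, 9 were lower without scaling (20.5%, against 8.21% of all genes) and 3 with it (6.82%, against 3.6%), and 0 were higher. Those lower included Usp30, which acts on the mitochondrial outer membrane (-1.71 and -1.38), and Usp12 (-1.43 and -1.02). Of 43 TRIM proteins 8 were lower without (18.6%) and 4 with scaling (9.3%), and 0 were higher. Trim14, an adaptor of antiviral signalling, was the most reduced named member, at -2.52 and -2.09 (limma adjusted p = 0.00537 and 0.0328). Its level was 60.3, 63 and 90.8 TPM in WT PBS, 206, 38.9 and 106 in WT oxLDL, 11.6, 5.8 and 9.31 in Pim1-/- PBS and 24.2, 20.7 and 17.4 in Pim1-/- oxLDL. Parp12, an interferon-induced ADP-ribosyltransferase, stood at 67.7, 83.1 and 47.8 TPM in WT PBS, 437, 96.6 and 289 in WT oxLDL, 16.5, 6.49 and 5.04 in Pim1-/- PBS and 52.7, 35.1 and 37.6 in Pim1-/- oxLDL, so that its level was higher after oxLDL in both genotypes and lower without Pim1 in both treatments. Its averaged difference was -2.64 (SE 0.38, limma adjusted p = 0.00555), and -2.21 after scaling (limma adjusted p = 0.0328). The interferon response list of 38 gave 1 lower (2.63%, against 8.21% of all genes) and 2 higher (5.26%, against 2.94%) without scaling. With it 0 were lower and 2 higher (5.26%, against 6.62%). Its transcription factor Irf8 was the 1 lower (-0.89, limma adjusted p = 0.0457), which did not pass with scaling.

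Among the other large falls, Ctbp1, a transcriptional corepressor, stood at 215, 250.5 and 159 TPM in WT PBS, 85.6, 17.3 and 30.0 in WT oxLDL, 16.1, 24.1 and 16.9 in Pim1-/- PBS and 11.2, 6.8 and 5.91 in Pim1-/- oxLDL, and its averaged difference was -2.73 (SE 0.35, limma adjusted p = 0.00449), and -2.32 after scaling (limma adjusted p = 0.0328). Rnf187, a RING ubiquitin ligase that coactivates AP-1, differed by -3.22 and -2.8, the nuclear receptor coactivator Pnrc1 by -2.8 and -2.4, and the immediate early gene Ier5 by -2.77 and -2.35, without and with scaling. Of 18 KLF and SP factors 4 were lower without scaling (22.2%, against 8.21% of all genes) and 3 with it (16.7%, against 3.6%), and 0 were higher. Klf3, a repressor that recruits CTBP, differed by -2.15 and -1.74 and Klf9 by -2.09 and -1.71. Of 313 Zfp zinc finger proteins 21 were lower (6.71%, against 8.21% of all genes) and 0 higher without scaling, and 5 lower and 1 higher with it. Kif1bp, a binding partner of kinesins, differed by -2.13 and -1.74, and Eif3b, a subunit of the initiation factor that brings messenger RNA to the ribosome, by -1.63 and -1.21.

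Sgpp1, the phosphatase that removes sphingosine 1-phosphate, stood at 147, 182 and 108 TPM in WT PBS, 102, 10.8 and 30.5 in WT oxLDL, 14.5, 11.6 and 3.58 in Pim1-/- PBS and 5.52, 3.49 and 3.79 in Pim1-/- oxLDL, with an averaged difference of -3.3 (SE 0.46, limma adjusted p = 0.00537), and -2.9 after scaling (limma adjusted p = 0.0328). The lipoprotein lipase gene, Lpl, stood at 3096, 3073 and 2523 TPM in WT PBS, 1522, 492 and 1961 in WT oxLDL, 590.1, 1369 and 689 in Pim1-/- PBS and 406, 391 and 369 in Pim1-/- oxLDL, and its averaged difference was -1.68 (SE 0.36, limma adjusted p = 0.0145), and -1.25 after scaling (limma adjusted p = 0.0381). Of the 25 tested genes of PPAR control and lipid droplets 3 were lower (12%, against 8.21% of all genes) and 2 higher (8%, against 2.94%) without scaling. With it 2 were lower (8%, against 3.6%) and 3 higher (12%, against 6.62%). The fatty acid binding protein gene Fabp5 was higher, by 1.35 and 1.78 (limma adjusted p = 0.0333 and 0.0351). Of 25 cholesterol synthesis genes 0 were called without scaling, and 1, Ebp, was higher with it. Of 17 LXR targets Abca1, the cholesterol exporter, and Npc1, the lysosomal cholesterol transporter, were lower without scaling (-1.34 and -1.23, limma adjusted p = 0.0282 and 0.0333) and did not pass with it. Of 16 scavenger and lipoprotein receptors 0 were called without scaling and 2 were higher with it.

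Of 29 integrins and adhesion genes 4 were lower and 0 higher without scaling, and 4 lower and 2 higher with it. Itga6, the laminin-binding alpha 6 integrin, stood at 44.4, 83.2 and 41 TPM in WT PBS, 5.24, 1.73 and 5.31 in WT oxLDL, 12.4, 16.5 and 5.57 in Pim1-/- PBS and 1.53, 0.407 and 0.697 in Pim1-/- oxLDL, and its averaged difference was -1.81 (SE 0.35, limma adjusted p = 0.00973), and -1.5 after scaling (limma adjusted p = 0.0328). Itga4, the alpha 4 integrin that binds VCAM1, differed by -1.48 and -1.08, and the actin crosslinker Actn1 by -2.05 and -1.62. The actin cytoskeleton list of 43 genes gave 6 lower and 1 higher without scaling and, the other way, 1 lower and 4 higher with it. Of 46 Rab GTPases 7 were lower and 0 higher without scaling and 4 and 2 with it. Rab40c, which couples to a ubiquitin ligase, stood at 77.4, 72.2 and 62.3 TPM in WT PBS, 8.95, 4.9 and 10.1 in WT oxLDL, 10.5, 13.3 and 8.69 in Pim1-/- PBS and 2.83, 2.13 and 2.05 in Pim1-/- oxLDL, with an averaged difference of -2.0 (SE 0.26, limma adjusted p = 0.00449), and -1.62 after scaling (limma adjusted p = 0.0258), and Rab43, of Golgi traffic, differed by -1.6 and -1.2. The remaining genes among the 15 largest falls were Btbd1 (-2.91), 1810026J23Rik (-2.87), Clptm1l (-2.71), Mesdc1 (-2.7) and the mitochondrial glutamate dehydrogenase gene Glud1 (-2.67), all called under both scalings.

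Inflammatory genes moved in both directions. Tnfaip2, a TNF-induced gene of membrane protrusions, stood at 372, 405 and 296 TPM in WT PBS, 1387, 254 and 619.9 in WT oxLDL, 73.9, 72.8 and 72 in Pim1-/- PBS and 178, 77.2 and 67.4 in Pim1-/- oxLDL, and its averaged difference was -2.44 (SE 0.38, limma adjusted p = 0.00704), and -2.01 after scaling (limma adjusted p = 0.0328). Bcl3, an atypical IkB protein that binds NF-kB in the nucleus, was lower, with differences of -2.16 and -1.76, and so was the repressor Bcl6, with -1.47 and -1.08. Tlr8, an endosomal RNA sensor, was lower, with -2.16 and -1.74. Of 34 NF-kB targets and inflammatory cytokines 4 were lower (11.8%, against 8.21% of all genes) and 7 higher (20.6%, against 2.94%) without scaling. With it 3 were lower (8.82%, against 3.6%) and 6 higher (17.6%, against 6.62%). After the trend with length and GC content was removed, 3 were lower and 0 higher, with a median of -0.04. The subunit gene Rela, itself listed with the PIM substrates, was lower without scaling (-1.34, limma adjusted p = 0.0173) and did not pass with it (-0.92, limma adjusted p = 0.0779). Of 33 PIM substrates and partners 3 were lower (9.09%, against 8.21% of all genes) and 1 higher (3.03%, against 2.94%) without scaling, and 0 and 1 with it, the higher one being the cell death gene Bad (1.82 and 2.11).

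Of 25 tested chemokines 9 were higher (36%, against 2.94% of all genes) and 1 lower without scaling, and 10 higher and 0 lower with it, and 6 were higher the same way under both. Their median transcript was 1094 nt, and after removal of the trend with length and GC content, 3 of the 25 were higher and 0 lower. Ccl8, a monocyte attractant, stood at 0.982, 0 and 0 TPM in WT PBS, 8.05, 17.8 and 1.44 in WT oxLDL, 10.1, 2.87 and 9.38 in Pim1-/- PBS and 31.2, 35.2 and 37.5 in Pim1-/- oxLDL, so it was listed at 0 in 2 WT PBS libraries. Averaged over treatments it differed by 2.43 (SE 0.46, limma adjusted p = 0.00962), and 2.56 after scaling (limma adjusted p = 0.0328). Ccl7, another monocyte attractant, stood at 2.78, 5.28 and 0 TPM in WT PBS, 320.0, 515 and 102 in WT oxLDL, 34.9, 10.8 and 18.5 in Pim1-/- PBS and 535, 882 and 893 in Pim1-/- oxLDL, and its averaged difference was 2.18 (SE 0.49, limma adjusted p = 0.0161), and 2.44 after scaling (limma adjusted p = 0.033). Ccl3 reached 2268, 5095 and 1015 TPM in WT oxLDL and 5419.9, 9819 and 8234 TPM in Pim1-/- oxLDL, with 17.8, 22.9 and 37.7 and 102, 52.1 and 66.1 TPM in the PBS groups, and differed by 1.6 and 2.02. In each of these 3 genes the second WT oxLDL library was the highest of its group and lay nearest to the Pim1-/- libraries. The 1 lower chemokine was Cxcl5 (-1.62, limma adjusted p = 0.0492), which did not pass with scaling.

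**Figure D2:**
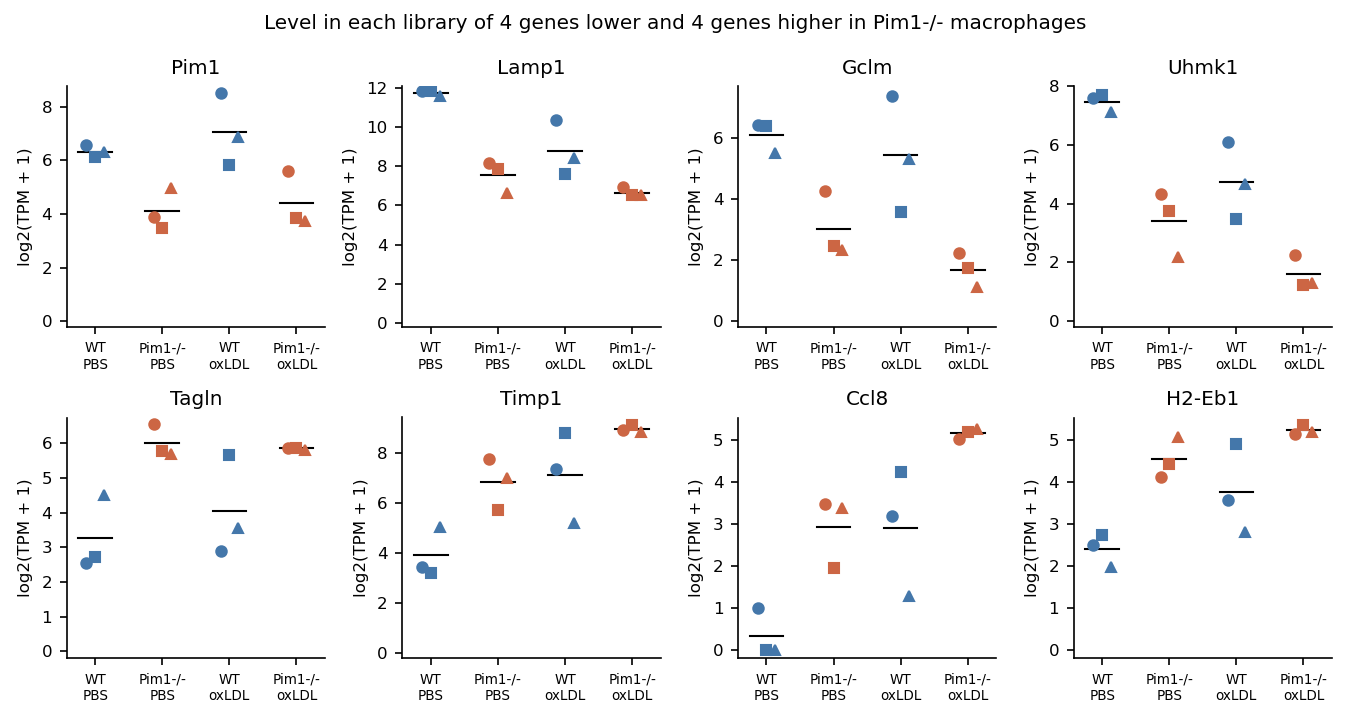
Level in log2(TPM + 1) of Pim1, Lamp1, Gclm, Uhmk1, Tagln, Timp1, Ccl8 and H2-Eb1 in each of the 12 libraries, WT in blue and Pim1-/- in orange, with a line at the group mean and a circle, square and triangle for replicate numbers 1, 2 and 3. In each panel the Pim1-/- libraries do not overlap the WT libraries of the same treatment, and the second WT oxLDL library (blue square) is the WT oxLDL library nearest to the Pim1-/- oxLDL libraries.

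Of 24 matrix proteases and inhibitors 4 were higher (16.7%, against 2.94% of all genes) and 1 lower without scaling, 7 and 1 with it (29.2%, against 6.62%, higher), and 6 and 2 after the trend with length and GC content was removed. Timp1, an inhibitor of matrix metalloproteinases, stood at 9.88, 8.28 and 32.2 TPM in WT PBS, 163, 445 and 35.4 in WT oxLDL, 213, 51.7 and 126 in Pim1-/- PBS and 474, 549.5 and 445 in Pim1-/- oxLDL. The Pim1-/- libraries lay above the WT libraries of each treatment, although the second WT oxLDL library, at 445 TPM, fell just under the lowest Pim1-/- oxLDL library. The averaged difference was 2.37 (SE 0.54, limma adjusted p = 0.018), and 2.76 after scaling (limma adjusted p = 0.0338). Slpi, the secretory leukocyte peptidase inhibitor, stood at 5.02, 5.02 and 6.55 TPM in WT PBS, 107, 280.0 and 22 in WT oxLDL, 66.8, 12.8 and 56.9 in Pim1-/- PBS and 297, 316 and 358 in Pim1-/- oxLDL, with an averaged difference of 2.2 (SE 0.53, limma adjusted p = 0.0209), and 2.57 after scaling (limma adjusted p = 0.0358). Tagln, the actin-binding transgelin of smooth muscle and fibroblasts, stood at 4.85, 5.64 and 21.8 TPM in WT PBS, 6.36, 49.7 and 10.8 in WT oxLDL, 92, 53.2 and 50.2 in Pim1-/- PBS and 57.3, 57.5 and 55 in Pim1-/- oxLDL, and its averaged difference was 2.27 (SE 0.46, limma adjusted p = 0.011), and 2.65 after scaling (limma adjusted p = 0.0328). Timp2, a relative of Timp1, was lower, with -2.43 and -2.01. Of the 16 tested mesothelial and fibroblast markers 0 were higher and 1 lower without scaling and 1 was higher with it. Their summed level, given above, was higher in each Pim1-/- PBS library than in each WT PBS library, and its part in the Tagln and Timp1 values was not tested.

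Of 98 nuclear-encoded oxidative phosphorylation genes 18 were higher (18.4%, against 2.94% of all genes) and 0 lower without scaling, 37 higher (37.8%, against 6.62%) and 0 lower with it, and 1 higher and 0 lower with the length and GC trend removed. The medians of the list were 1.19 without and 1.60 with scaling. Ndufs6, of respiratory complex I, stood at 20.6, 15.7 and 0 TPM in WT PBS, 13.8, 88.4 and 10.9 in WT oxLDL, 132, 31.3 and 74.3 in Pim1-/- PBS and 99.7, 117 and 96.9 in Pim1-/- oxLDL, listed at 0 in the third WT PBS library. The mean of its 2 differences was 2.67 (SE 0.71, limma adjusted p = 0.0301), and 2.98 after scaling (limma adjusted p = 0.034). Ndufb11, another complex I subunit, differed by 2.27 and 2.58, and Tomm7, of the outer membrane import channel, by 2.39 and 2.71, and both were listed at 0 in the third WT PBS library as well. The summed level of the 98 genes was 6030.0, 5534 and 9899 TPM in WT PBS, 3885, 9939 and 4275 in WT oxLDL, 18539, 6850.0 and 11618 in Pim1-/- PBS and 10089, 15599 and 12839 in Pim1-/- oxLDL. These sums overlapped between genotypes in PBS, while in oxLDL each Pim1-/- library lay above each WT library.

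Of 76 tested genes of the mitochondrial ribosome 11 were higher (14.5%) and 0 lower without scaling, and 22 and 0 with it, and 9 were higher the same way under both. Mrpl13 stood at 8.54, 8.46 and 0 TPM in WT PBS, 19.3, 46.1 and 16.6 in WT oxLDL, 87.4, 27 and 28.6 in Pim1-/- PBS and 50.8, 91.7 and 91.7 in Pim1-/- oxLDL, and its averaged difference was 2.4 (SE 0.54, limma adjusted p = 0.0165), and 2.69 after scaling (limma adjusted p = 0.0328). Mrps33 differed by 2.22 and 2.52. Mrps36, also known as a subunit of the 2-oxoglutarate dehydrogenase complex, differed by 1.76 and 2.18 and was above 0 in all libraries. Of 81 cytoplasmic ribosomal protein genes 13 were higher (16%) without and 28 with scaling and 0 were lower, but 1, Rps3, had groups that did not overlap in either treatment under both scalings. Of 46 replication-dependent histones 13 were higher (28.3%, against 2.94% of all genes) and 0 lower without scaling. With it 15 were higher (32.6%, against 6.62%) and 0 lower. The proteasome gave 1 higher of 38 without and 5 with scaling.

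The mitochondrial, ribosomal and histone lists consist of short transcripts, and their values changed when the length trend was removed. The median transcript was 855 nt for cytoplasmic ribosomal proteins, 977 nt for oxidative phosphorylation, 1336 nt for mitochondrial ribosomal proteins and 600 nt for histones, against 2801 nt for all tested genes. With the length and GC trend taken out of each library their median differences were 0.64, 0.46, 0.54 and 0.46. The genes still called higher were then 1 of 81, 1 of 98, 4 of 76 and 4 of 46, against 2.1% of all tested genes. For the lower lists, the medians went to -0.18 for MAP kinases, -0.17 for ubiquitin-specific proteases and -0.18 for KLF and SP factors, with 4, 3 and 3 members still lower, against 3.88% of all.

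Length separated the same-way genes as a whole. The 283 lower genes had a median transcript of 4143 nt, a coding length of 1794 nt, a 3′ untranslated region of 1650 nt and 12 exons. The 147 higher genes had 1043 nt, 558 nt, 264 nt and 4 exons, and all tested genes 2801 nt, 1359 nt, 931 nt and 9 exons. Transcripts under 1000 nt made up 47.6% of the higher genes, 0% of the lower and 9.72% of all. The median averaged difference went from 0.84 in the shortest of 10 equal bins of genes to -0.67 in the longest without scaling, and from 1.16 to -0.31 with it. Of the 147 higher genes 57 (38.8%) were listed at 0 in the third WT PBS library, against 18.8% of all tested genes. The part of the length slopes and of this library in the differences was not tested beyond these values.

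**Figure D3:**
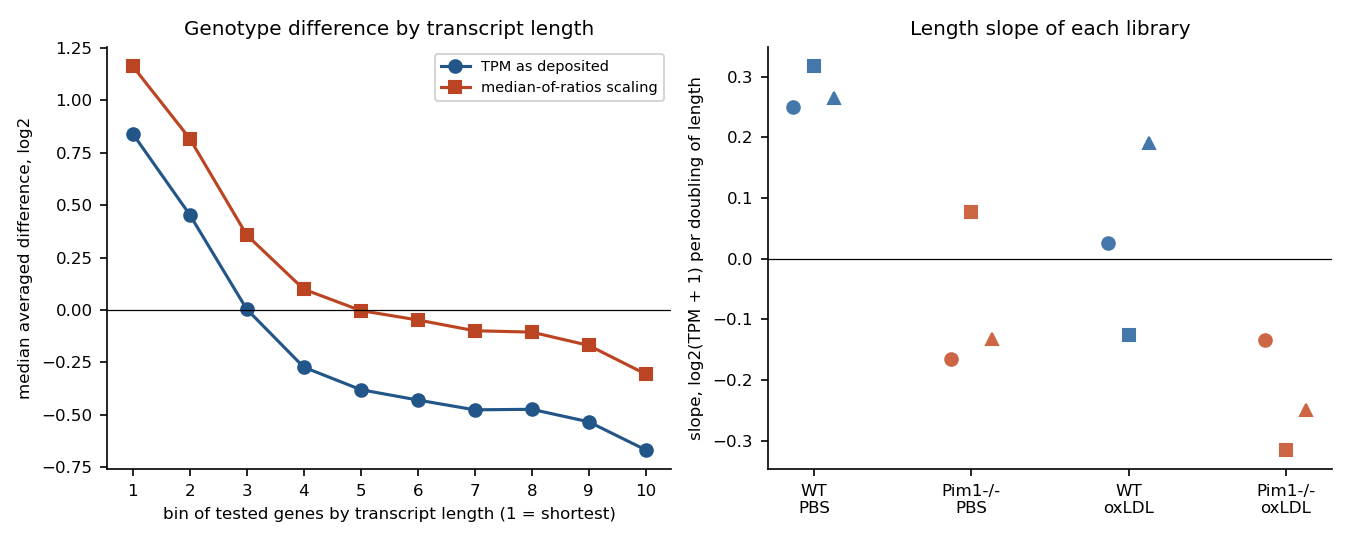
Left, median averaged Pim1-/- minus WT difference (log2) in 10 equal bins of tested genes by transcript length, without (blue) and with (red) scaling. Right, slope of each library's log2(TPM + 1) deviation per doubling of transcript length, WT in blue and Pim1-/- in orange, 1 point per library. The difference falls from 0.84 to -0.67 without scaling, and the slopes are above 0 in the 3 WT PBS libraries and below 0 in 5 of the 6 Pim1-/- libraries.

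With length and GC content also taken out, 194 of the 283 lower genes (1.54% of all tested genes) and 45 of the 147 higher genes (0.357%) were still shifted the same way. The lower ones included Uhmk1 (-2.92), Lamp1 (-2.92), Gclm (-2.78), Mapk14 (-1.68), Trim14 (-2.7), Parp12 (-2.23) and Lpl (-1.14), where each value is the averaged difference after that step. The higher ones included Tagln (2.12), Ccl8 (1.45), Mrps36 (0.9), Higd1a, a mitochondrial protein induced by hypoxia (1.91), Snrpd3, a core spliceosomal protein (2.38), Fosl1, an AP-1 subunit (1.41), and Gins2, of the replicative helicase (1.61). Of the 15 largest falls 14 were still called and 1 was not, but of the 15 largest increases 4, Gm14288, Ccl8, Timp1 and Tagln, were still called and 11 were not. The 11 were Ndufs6 (1.61, limma adjusted p = 0.132), Gng11 (0.0677), Mrpl13 (0.0503), Tomm7 (0.0893), Vkorc1 (0.179), Ngfrap1 (0.089), Ssr2 (0.19), Ndufb11 (0.158), Mrps33 (0.0762), Slpi (0.0505) and Ccl7 (0.054), with the adjusted p in brackets, and Ccl3 was not called either (0.0763).

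Ssr2, a subunit of the complex at the protein-conducting channel of the endoplasmic reticulum, stood at 14.8, 14.4 and 0 TPM in WT PBS, 46.9, 88.8 and 20.5 in WT oxLDL, 80.7, 45 and 72.7 in Pim1-/- PBS and 98.9, 102 and 101 in Pim1-/- oxLDL, and its averaged difference was 2.28 (SE 0.59, limma adjusted p = 0.0284), and 2.58 after scaling (limma adjusted p = 0.0334). Vkorc1, the vitamin K epoxide reductase of the same membrane, differed by 2.3 and 2.61. Of 35 ATF4 and unfolded protein response genes 1 was lower (2.86%, against 8.21% of all genes) and 3 higher (8.57%, against 2.94%) without scaling. With it 1 was lower (2.86%, against 3.6%) and 5 higher (14.3%, against 6.62%). Manf, a secreted factor of endoplasmic reticulum stress, stood at 4.97, 5.15 and 6.41 TPM in WT PBS, 8.41, 19.1 and 3.81 in WT oxLDL, 31.8, 8.47 and 19.5 in Pim1-/- PBS and 22.8, 32.5 and 21.6 in Pim1-/- oxLDL, and its averaged difference was 1.48 (SE 0.38, limma adjusted p = 0.0278), and 1.84 after scaling (limma adjusted p = 0.0348). Chac1, which degrades glutathione, differed by 1.15 and 1.34, and the 1 lower gene was Edem1, of the degradation of misfolded glycoproteins, at -1.56 and -1.14. The 15 largest increases also held Gng11, a G protein gamma subunit (2.64 and 2.93), Ngfrap1 (2.28 and 2.56) and the gene model Gm14288 (3.12 and 3.38), and Gm14288 was listed at 0 in 4 of the 6 WT libraries.

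Of 13 MHC class II genes 4 were higher (30.8%, against 2.94% of all genes) and 0 lower without scaling, 6 (46.2%, against 6.62%) and 0 with it, with medians of 0.47 and 0.81, and 3 and 0 with the trend removed. Of the 5 tested dendritic cell markers 0 were called without scaling and 1 was higher with it, with medians of 1.07 and 1.23, and their part in these values was not tested. H2-Eb1, the beta chain of the class II molecule I-E, stood at 4.63, 5.66 and 2.93 TPM in WT PBS, 10.9, 28.8 and 6.07 in WT oxLDL, 16.3, 20.7 and 32.9 in Pim1-/- PBS and 34.3, 40.4 and 35.6 in Pim1-/- oxLDL, higher in each Pim1-/- library than in each WT library of its treatment. On average it differed by 1.81 (SE 0.35, limma adjusted p = 0.00973), and 2.16 after scaling (limma adjusted p = 0.0328), and 1.25 with the length trend removed (limma adjusted p = 0.026). H2-Ab1, the beta chain of I-A, stood at 27, 16.6 and 30.7 TPM in WT PBS, 117, 256 and 65.8 in WT oxLDL, 97.5, 78.9 and 133 in Pim1-/- PBS and 289, 262 and 255 in Pim1-/- oxLDL, and its averaged difference was 1.56 (SE 0.33, limma adjusted p = 0.013), and 1.97 after scaling (limma adjusted p = 0.0328), while the second WT oxLDL library overlapped the Pim1-/- oxLDL libraries. The class I gene H2-Q7 differed by 1.73 and 2.02 and Psme2, an activator of the immunoproteasome, by 1.5 and 1.92, and of 21 class I and immunoproteasome genes 2 were higher without and 4 with scaling.

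Some of these genes lie near Pim1 on chromosome 17. Within 5 Mb of its start 196 other genes were tested. Without scaling 11 were lower and 13 higher, where the shares of all tested genes were 8.21% and 2.94%. With scaling 5 were lower and 26 higher, where those shares were 3.6% and 6.62%. The medians were -0.16 and 0.19, beside -0.30 and 0.05 over all tested genes. Under both scalings 3 were lower and 4 higher the same way, where the shares of all tested genes were 2.25% and 1.17%. Besides Pim1, genes called lower there included Mapk14 and Rab40c, and those called higher H2-Eb1, H2-Ab1, H2-Aa and U2af1, a splicing factor of the 3′ splice site. The class II genes H2-Ab1, H2-Aa and H2-Eb1 are neighbours that start 4767 to 4815 kb from Pim1. The class II calls above thus come largely from 1 stretch of this chromosome and not from separate places. The labels give no strain for either genotype, and the part of sequence that travels with the deleted allele was not tested.

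**Figure D4:**
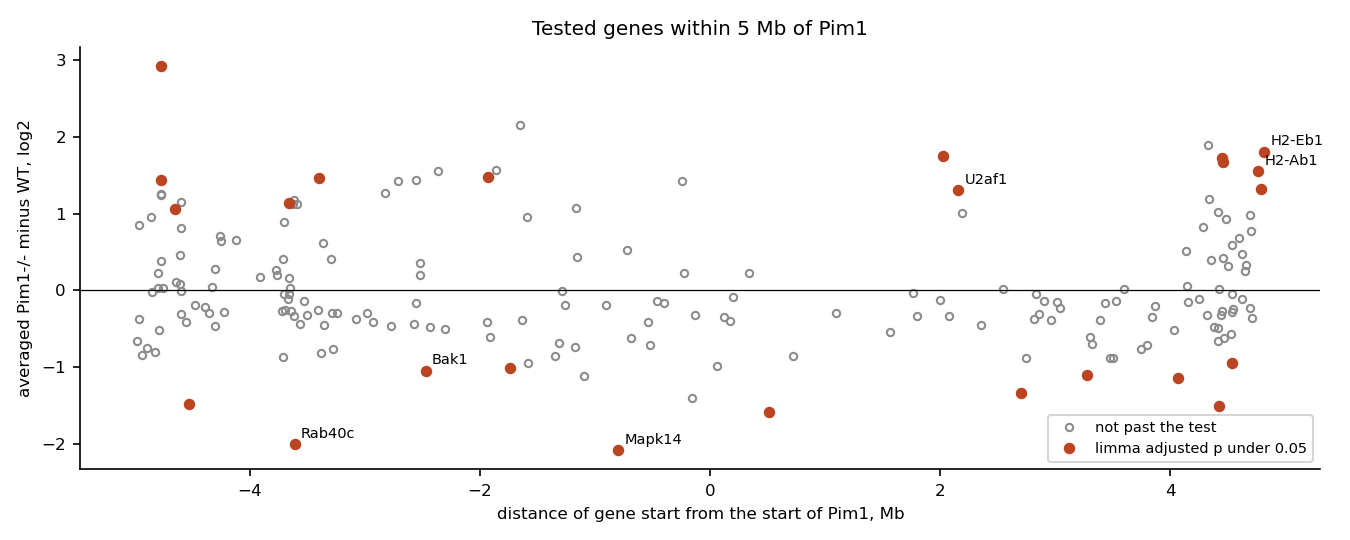
Averaged Pim1-/- minus WT difference (log2, without scaling) of the 196 tested genes within 5 Mb of Pim1, against the distance of their start from the start of Pim1 in Mb. Filled points passed the test, 11 lower and 13 higher, and several of the higher ones, H2-Ab1 and H2-Eb1 among them, lie between 4 and 5 Mb on the right.

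Of 23 identity genes of large peritoneal macrophages 2 were lower (8.7%) and 1 higher (4.35%) without scaling, against 8.21% and 2.94% of all genes, and 1 and 2 with it. Gata6, the transcription factor of large peritoneal macrophages, stood at 11, 21.9 and 11.4 TPM in WT PBS, 16.3, 1.12 and 1.38 in WT oxLDL, 3.97, 1.35 and 1.32 in Pim1-/- PBS and 0.407, 0.839 and 0.253 in Pim1-/- oxLDL, and its averaged difference of -1.95 passed without scaling (limma adjusted p = 0.0219) and not with it (-1.66, 0.0639). Adgre1, which encodes F4/80, differed by -1.58 and -1.15 (limma adjusted p = 0.0289 and 0.0457), and, outside this list, the efferocytosis receptor Mertk by -1.24 and -0.81 (0.038 and 0.0659). Of 16 monocyte-derived macrophage markers 1, Plac8, was higher without scaling (2.44) and 2 with it. Lists of at least 20 tested members with 0 calls in either direction without scaling were cholesterol synthesis, the TCA cycle, Fc and complement receptors and aminoacyl-tRNA synthetases, and only the last also had 0 with scaling.

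**Figure D5:**
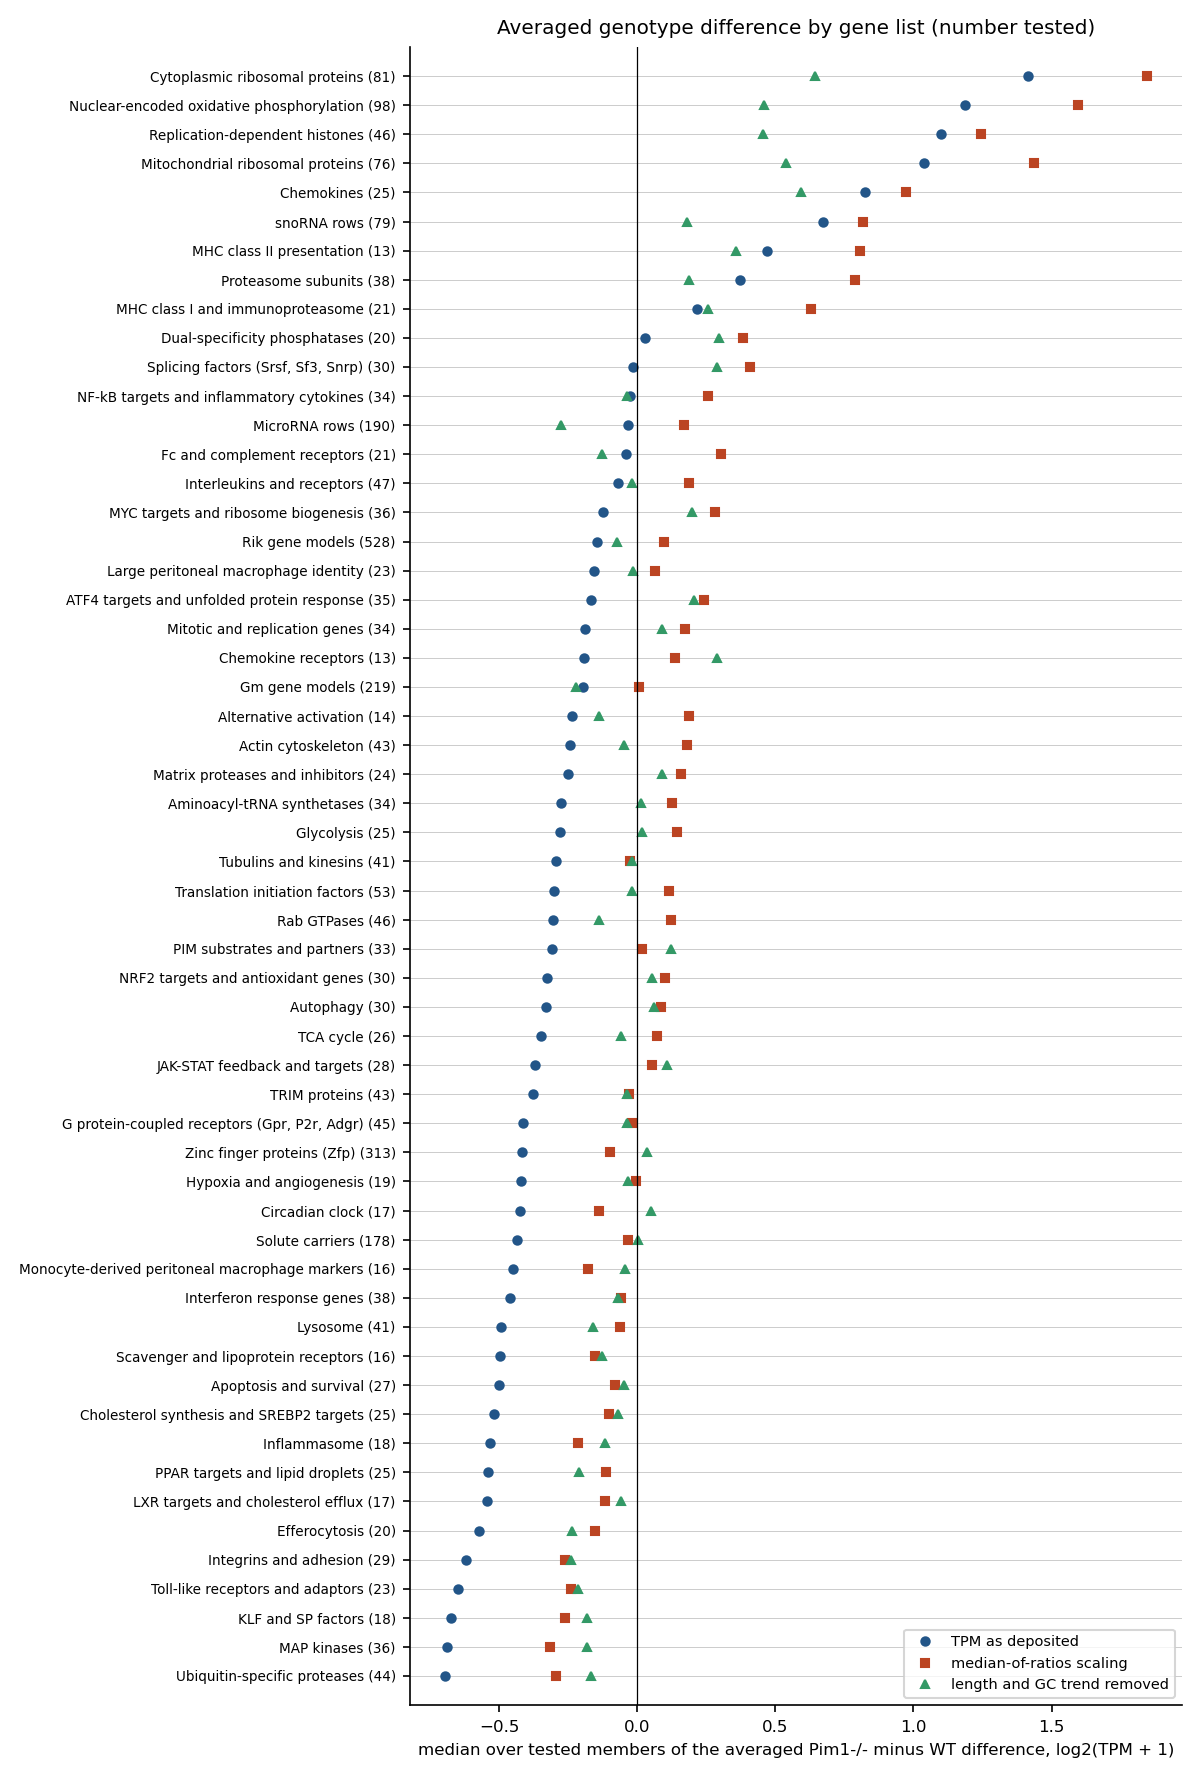
Median averaged Pim1-/- minus WT difference (log2) over the tested members of each pathway or gene family list with at least 8 of them (cell type marker lists are not shown), with the number tested in brackets, without scaling (circles), with scaling (squares) and after removal of the trend with length and GC content (triangles). Cytoplasmic ribosomal proteins lie highest at 1.42, 1.85 and 0.64, and ubiquitin-specific proteases and MAP kinases lowest without scaling, at -0.69 each.

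Scaling decided the call of other genes. The 3 genes with the smallest p among those called lower only without scaling were Otud5, a deubiquitinase (-1.69 and -1.27), Lmo2, a transcriptional adaptor (-1.86 and -1.44), and Nab2, a corepressor of EGR factors (-1.37 and -0.95), and 0 genes were called lower only with scaling. Those called higher only without scaling included Il6 (1.05 and 1.17) and Ly6i (1.22 and 1.31). Il6 stood at 0, 0.149 and 0 TPM in WT PBS, 391, 417 and 215 in WT oxLDL, 3.73, 0.625 and 1.11 in Pim1-/- PBS and 415, 673 and 718 in Pim1-/- oxLDL, so the averaged difference joins levels near 0 in PBS with high levels in oxLDL. Those called higher only with scaling included Osgep, of transfer RNA modification (0.7 and 1.1), the immunophilin Fkbp1a (0.72 and 1.15) and Tmem159 (0.59 and 1.0).

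The genotype difference itself differed between oxLDL and PBS in 1 gene, Mir7678 (0.00794% of tested genes, limma adjusted p under 0.05), and 381 genes had an unadjusted p under 0.05. This row, for a microRNA hairpin inside an intron of Slpi, was listed at 0 in 9 libraries and at 10.4, 9.25 and 13.9 TPM in Pim1-/- oxLDL. Another microRNA row, Mir1249, was listed at 0 in all 6 Pim1-/- libraries and stood at 9.57, 12.5 and 0 TPM in WT PBS and 6.7, 10.2 and 4.02 TPM in WT oxLDL. It passed the averaged test under both scalings (limma adjusted p = 0.00973 and 0.0328), and no size is given against a group at 0. These rows hold sequence of a hairpin within a host gene, and whether host transcripts or mature microRNAs gave the values was not tested. Their mature sequences (RefSeq, GRCm38.p6) are given because a microRNA is read through its seed, bases 2 to 8, in capitals.
mmu-miR-1249-3p: aCGCCCUUcccccccuucuuca
mmu-miR-7678-3p: uUUCCUUAcuuucucuuguagc
mmu-miR-7678-5p: uUACAAGGgcuggauaggaau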

How the data were processed

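The authors deposited TPM, a level corrected for transcript length and scaled to a fixed sum per library, for each gene in each of 12 libraries. The submitters' processing notes name Salmon, DESeq2 and the mm10 build, and the annotation they used was not given in the sources used here. Read depth cannot be read from TPM and is unknown, so no count test or counting interval was used. Of 24277 distinct names 98.4% matched GENCODE M21, and 25 rows carried date-like names.

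Values were tested as log2(TPM + 1), which understates changes of low genes. A limma 3.58.1 model (R 4.3.3) with 1 mean per group (12 libraries, 8 residual degrees of freedom) and an intensity trend gave the averaged, PBS, oxLDL and difference contrasts, Benjamini-Hochberg adjusted over 12594 genes. On simulated data it recovered 16.4%, 74.6% and 97% of averaged log2 changes of 1, 2 and 4. The simulated noise was independent between genes and had no length slopes shared within a library, so these shares may not hold for these libraries. The length and GC trend was a spline with 6 degrees of freedom per library.

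Named genes are the Pim kinases, the 15 largest same-way changes per direction, up to 2 called per list and direction (or those of smallest p), genes near Pim1 and the 3 of smallest p called under 1 scaling only; some genes the rule names are not reported here. Members and lists were chosen with earlier results of these data known. Other scalings, filters and pseudocounts, weights, a replicate block and leaving out libraries were tried.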

Additional observations from a re-analysis of the deposited data

Results flagged for a closer look

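The genotype difference of 1 named gene differed between treatments. For Mir7678 the fitted value of the oxLDL difference minus the PBS difference was 3.59 on the log2(TPM + 1) scale (limma adjusted p under 0.05 without and with scaling), a number set by the pseudocount and not a size, since the other 3 groups were listed at 0. The row was listed at 0 in 9 libraries and stood at 10.4, 9.25 and 13.9 TPM in the 3 Pim1-/- oxLDL libraries, and the call was lost when the length and GC trend was removed. Its host gene Slpi stood at 297, 316 and 358 TPM in the same libraries.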

How the results depend on the processing

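Counts are limma calls at adjusted p under 0.05. The 122 single genes followed kept their sign in every alternative that tested them, 42 for most genes and 34 for Mir7678. Most were chosen for their values in these same libraries, so a kept sign was largely fixed by that choice. The calls of these genes were less stable. Leaving Pim1 aside, 3480 results of single genes in single alternatives kept their call status, 1544 lost the call and 47 gained it. With scaling the median of all genes went from -0.30 to 0.05, that of Rab GTPases from -0.30 to 0.12 and that of PIM substrates from -0.31 to 0.02. Median-of-ratios scaling called 454 lower and 834 higher genes in the averaged contrast, of which 286 and 412 were shifted the same way, and 3 genes in PBS. Quantile normalization called 753 higher and left 417 lower and 332 higher the same way. Rescaling without Rn45s and Mir6236 called 170 genes in PBS. With a pseudocount of 0.1 the averaged higher count was 192, the same-way higher count 96, the PBS count 198 and the difference 0. With a pseudocount of 5 PBS gave 963 and the difference 2. Without a filter the averaged contrast gave 461 and 56, the same way 361 and 35, and PBS 151. Filters of TPM of at least 5 in 3 libraries or at least 1 in 6 gave 0 for the difference, and the latter 0 in oxLDL. Library weights gave 3615 lower and 1294 higher, 236 higher the same way, 4484 in PBS, 76 in oxLDL and 2 for the difference.

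Same-numbered libraries of different groups deviated with correlations of -0.521 to 0.165 (median -0.049, 18 pairs). Other pairs gave -0.271 to 0.724 (median 0.007, 36 pairs). Same-numbered libraries were thus not more alike, but the length slopes also enter these values, so they cannot decide whether the numbers pair the samples. With the replicate block 685 genes were lower and 192 higher, with 321 in PBS, 0 for the difference, and 141 lower and 37 higher the same way under both scalings. With the block and scaling 181 were lower and 96 higher, 141 and 69 the same way, and 0 in PBS.

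Leaving out WT PBS 3 and WT oxLDL 2 gave 2056 lower and 1173 higher, 1499 and 894 the same way, 1165 in PBS, 840 in oxLDL, 5 for the difference, and 918 and 862 the same way under both scalings. With scaling as well, 1778 were higher, 1409 the same way, with 252 in PBS and 483 in oxLDL. The following were chosen after seeing the data. Removing the length and GC trend gave 489 lower, 302 the same way, and 0 in oxLDL and for the difference. Together with leaving out those libraries it gave 1285 higher, 940 the same way, 520 in oxLDL and 0 for the difference. Leaving out WT oxLDL 2 and Pim1-/- oxLDL 1 gave 643 higher, 314 the same way, 175 in oxLDL and 0 for the difference.

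Leaving out 1 library at a time, the averaged lower count ranged from 283 to 1970 without scaling (0 to 784 with it) and the higher count from 28 to 830 (0 to 1416). The same-way counts ranged from 248 to 1030 lower (0 to 526) and 13 to 395 higher (0 to 794), and under both scalings from 0 to 520 lower and 0 to 379 higher. PBS ranged from 2 to 1708 (0 to 367), oxLDL from 0 to 323 (0 to 95) and the difference from 0 to 3 (0 to 2). The Pim1 difference ranged from -2.74 to -2.07 without scaling, with every value past the threshold, and from -2.31 to -1.57 with it, where 8 of 12 values missed it. The causes were not tested. Read depth is unknown, so no limit of detection could be given.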
